A study of Rattus norvegicus with 3 samples.

Results

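Tetraspanins are the family of membrane proteins described here, across 3 libraries of cultured Schwann cell precursors. The genes were chosen by name, as those whose symbol starts with Tspan and a number, together with Cd9, Cd37, Cd53, Cd63, Cd81, Cd82, Cd151, Upk1a, Upk1b, Prph2 and Rom1. Of the 17337 genes listed, 29 met that rule. The libraries form 1 group of untreated wild-type cells from dorsal root ganglion of embryonic rats, labelled as primary peripheral glial cells and kept in a DMEM-based modified Sato medium. Whether the 3 libraries came from separate cultures is not stated in the labels, so the spread between them may be technical. With 1 group, the data give the level of each gene in these cultures and not a response to a condition.

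Tetraspanins cross the membrane several times and carry a small and a large extracellular loop. They bind one another and partner proteins such as integrins, immunoglobulin-type proteins and the sheddase ADAM10, and so gather them into patches of membrane. CD9, CD63 and CD81 are widely used as markers of extracellular vesicles, and CD9 and CD81 are known surface proteins of Schwann cells.

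Libraries held 14139074 to 15309526 counts, and levels are given as TPM, in which each gene's count is corrected for its length and every library has the same total. The label was checked against its markers: the 9 precursor markers that are listed all lay above 1 TPM, and they summed to 10064 to 10295 TPM. Fibroblast markers were also abundant, with all 6 above 1 TPM and a summed level of 8283 to 8483 TPM. The 6 sensory neuron markers, all above 1 TPM, summed to 617 to 639 TPM. The 6 leukocyte markers, 4 of them above 1 TPM, summed to 24.7 to 29.8 TPM. By the limma test given below, 78.4% of all genes with a count were above 1 TPM. Being above 1 TPM therefore hardly tells cell types apart. Neither of the 2 listed melanocyte markers, Tyr and Mlana, had a count, and 0 of 3 photoreceptor and 0 of 4 urothelial markers were above 1 TPM. Which cells of the culture the tetraspanin transcripts came from was not measured, and fewer cells of a type cannot be told apart from less RNA per cell.

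Together the 29 genes reached 6548, 6646 and 6607 TPM in replicates 1, 2 and 3, which is 0.66% ± 0.0049 (SD, n = 3) of all transcripts counted. The family was led by a few members. Cd63 alone supplied 40.0% ± 0.589 of that sum, Cd81 a further 16.5% ± 0.217 and Cd9 8.04% ± 0.0594. In all, 11 members had a mean of 100 TPM or more, 7 lay between 10 and 100 TPM, 5 between 1 and 10 TPM and 5 under 1 TPM, and Prph2 had no count, as did 23% of all listed genes. At 1 TPM or more in each library were 23 members (79.3%), where 60.6% of all listed genes were. The 11 members at 100 TPM or more in each library are 37.9% of the family, where 11.7% of all listed genes reached that level. The median over the 29 members was 31.9 ± 0.732 TPM. Over the 28 with a count it was 37.2 ± 0.692 TPM, beside 21.7 ± 0.195 TPM over all 13345 genes with a count.

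Each gene with a count was tested against a level of 1 TPM with limma, on log2(TPM + 1), with Benjamini-Hochberg adjustment over all of them. By that test 23 of the 28 members with a count were above 1 TPM, where 78.4% of all genes tested were above. The other 5 were below, where 17.8% of all genes tested were below. Both shares are near the background, which here holds only genes that already had a count.

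**Figure D1:**
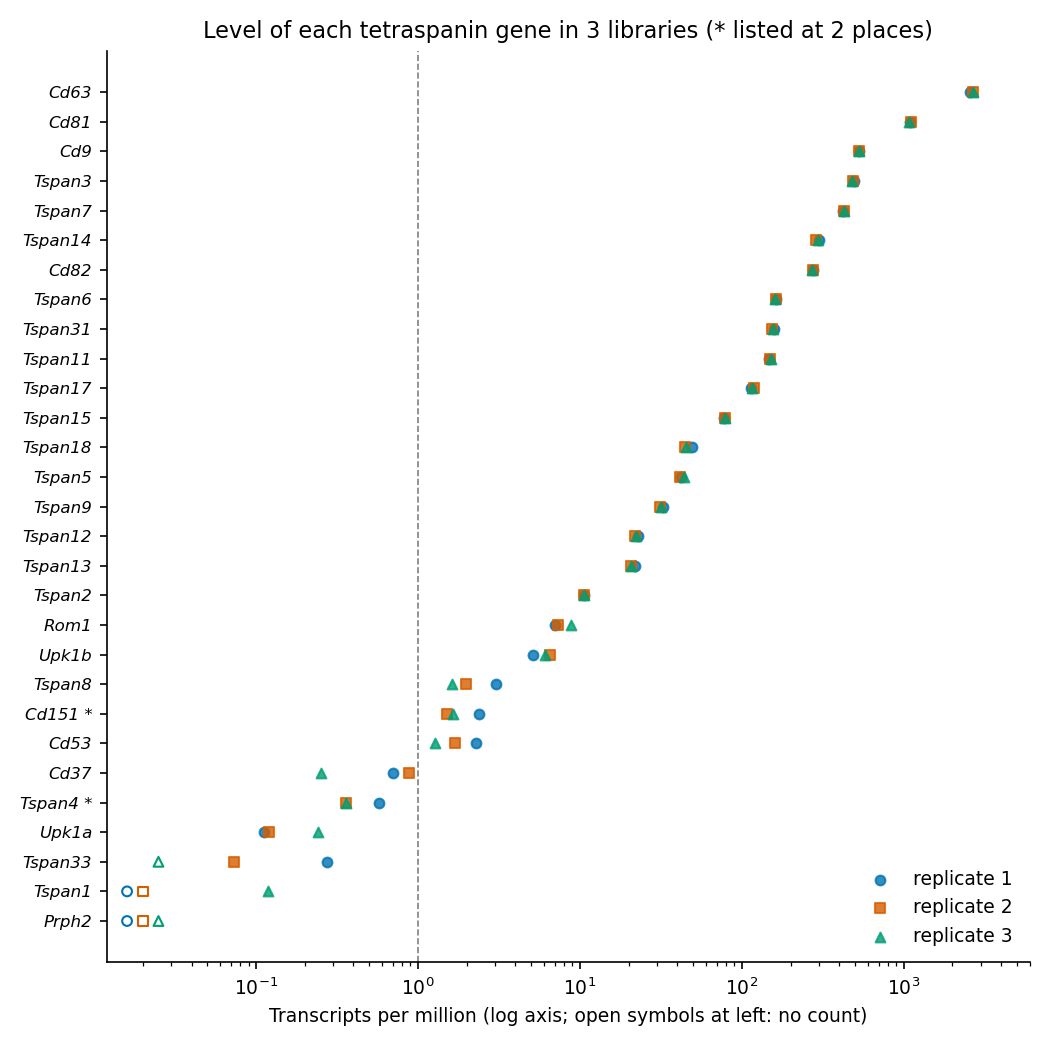
Level of the 29 tetraspanin genes, in TPM on a log axis, with 1 symbol per library, open symbols at the left edge for libraries without a count, and a dashed line at 1 TPM. The symbols of the 3 libraries lie close together down to Tspan2 at 10.6 TPM and spread apart below it.

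**Figure D2:**
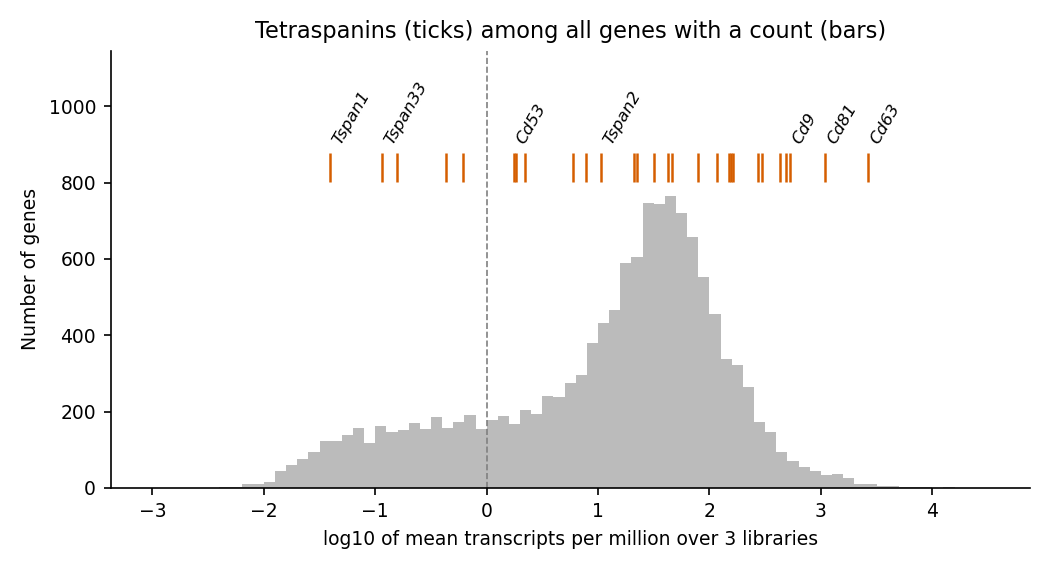
Number of genes (bars) by the log10 of their mean TPM, for all 13345 genes with a count, with the 28 tetraspanins that had a count as ticks and a dashed line at 1 TPM. The ticks run from Tspan1 at 0.0393 TPM to Cd63 at 2639.6 TPM, with 5 to the left of the line.

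Promoter sequences were taken from RefSeq on the GRCr8 assembly, each a window of 300 bases around the gene's start, most of it upstream, and 27 of the 29 members matched an entry. The 5 printed here show the range of CpG content, that is, of C followed by G, since such sites are dense in the promoters of many broadly used genes. They are from the 2 most abundant members, from Tspan5 with the most CpG-rich window, from Upk1a with the poorest and from Tspan33, which is rich in CpG but nearly silent. Each is given 5′ to 3′ on the gene's strand, with every CpG in capitals.
Cd63, chr7:1921894-1922193, plus strand: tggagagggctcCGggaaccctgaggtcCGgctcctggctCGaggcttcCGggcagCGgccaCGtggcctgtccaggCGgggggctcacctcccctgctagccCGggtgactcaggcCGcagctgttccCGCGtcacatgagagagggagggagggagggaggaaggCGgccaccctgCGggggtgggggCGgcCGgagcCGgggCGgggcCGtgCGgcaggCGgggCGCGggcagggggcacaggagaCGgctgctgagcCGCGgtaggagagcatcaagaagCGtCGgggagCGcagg
Cd81, chr1:207665047-207665346, plus strand: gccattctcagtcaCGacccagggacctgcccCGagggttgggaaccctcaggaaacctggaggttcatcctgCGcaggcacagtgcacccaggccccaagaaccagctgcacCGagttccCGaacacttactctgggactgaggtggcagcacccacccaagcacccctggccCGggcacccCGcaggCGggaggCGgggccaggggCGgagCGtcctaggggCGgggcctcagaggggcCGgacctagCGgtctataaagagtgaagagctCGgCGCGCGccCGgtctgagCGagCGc
Tspan5, chr2:229967326-229967625, plus strand: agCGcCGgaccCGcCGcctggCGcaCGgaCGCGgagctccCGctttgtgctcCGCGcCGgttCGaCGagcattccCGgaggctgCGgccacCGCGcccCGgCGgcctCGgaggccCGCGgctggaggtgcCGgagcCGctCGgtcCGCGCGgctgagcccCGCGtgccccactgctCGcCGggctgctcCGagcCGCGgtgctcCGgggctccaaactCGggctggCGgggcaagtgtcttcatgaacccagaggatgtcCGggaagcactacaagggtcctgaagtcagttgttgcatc
Upk1a, chr1:94997531-94997830, minus strand: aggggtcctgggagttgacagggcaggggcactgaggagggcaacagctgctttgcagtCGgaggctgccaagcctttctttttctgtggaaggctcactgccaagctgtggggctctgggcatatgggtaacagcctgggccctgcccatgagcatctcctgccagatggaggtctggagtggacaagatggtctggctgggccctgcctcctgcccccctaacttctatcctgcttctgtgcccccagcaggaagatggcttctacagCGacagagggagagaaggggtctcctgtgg
Tspan33, chr4:59270494-59270793, plus strand: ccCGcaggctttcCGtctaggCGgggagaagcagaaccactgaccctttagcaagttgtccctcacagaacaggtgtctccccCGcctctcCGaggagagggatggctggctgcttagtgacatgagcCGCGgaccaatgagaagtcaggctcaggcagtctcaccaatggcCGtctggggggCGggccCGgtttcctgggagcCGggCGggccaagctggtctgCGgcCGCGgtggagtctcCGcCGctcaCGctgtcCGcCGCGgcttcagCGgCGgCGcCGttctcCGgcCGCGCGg

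Cd63 encodes a tetraspanin of late endosomes, lysosomes and exosomes, and it was the family's most abundant transcript. Its level was 2574, 2678 and 2666 TPM in replicates 1, 2 and 3, with a mean of 2639.6 ± 57.0 TPM, which ranks it 20 among 17337 genes. In rn6 coordinates Cd63 (NCBI gene 29186) occupies chromosome 7 between 3332788 and 3335579, plus strand, in 8 exons. It exceeded Cd81 by a log2 ratio of 1.27 ± 0.04 (SD, n = 3) and Cd9 by 2.31 ± 0.03, each in 3 of 3 libraries. For ratios, 0.1 TPM was added to each gene. For this and every other pair the exact sign-flip permutation test cannot give a two-sided p below 0.25 with 3 libraries.

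Among surface tetraspanins found on many cell types, Cd81, known from lymphocytes as well as glia, was at 1091, 1107 and 1076 TPM. All 3 libraries of Cd81 were above every library of Cd9 and below every library of Cd63. Cd9, known for its need in the fusion of egg and sperm, was at 529, 529.6 and 533 TPM, with a mean of 530.4 ± 2.28. Cd81 was thus 2.06-fold higher than Cd9 (log2 ratio of Cd9 to Cd81 -1.04 ± 0.03). Cd81 (25621) occupies chromosome 1 between 216237663 and 216253461, plus strand, and Cd9 (24936) chromosome 4 between 157977163 and 158010091, minus strand, both in 8 exons.

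Tspan3, which associates with the tight junction protein claudin-11 in oligodendrocytes, was at 496, 486 and 481 TPM, just under Cd9 and without overlap with it. Cd82, also called KAI1 and known as a suppressor of metastasis, was at 274, 277 and 273 TPM. Cd82 stood 3.97-fold below Cd81, with a log2 ratio of -1.99 ± 0.01. Tspan11, a close relative of Cd151, was at 147, 149.8 and 151 TPM. Tspan9, best known from platelets, was lower at 31.9 ± 0.732 TPM.

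Cd151, the laminin-binding integrins' main tetraspanin partner, and Tspan4, a tetraspanin of migrasomes, were the lowest of these surface members as listed. Cd151 was at 2.39, 1.505 and 1.64 TPM and Tspan4 at 0.576, 0.361 and 0.361 TPM, with replicate 1 the highest for both. Both genes are listed at 2 places on chromosome 1, with the exons repeated 436.9 kb apart. Cd151 is listed from 214009753 to 214013760 and from 214446659 to 214450666, and Tspan4 from 214017184 to 214036835 and from 214454090 to 214473741. Of the 284 genes listed at 2 places in this way, 253 (89.1%) were under 1 TPM in every library, against 26.0% of other genes with 4 or more exons. The listed lengths of Cd151 and Tspan4, 3284 and 2820 bases, cover the 16 listed exons of both places. Counts were divided by these lengths, and the rule for reads that match both places was not given. Both TPM values, the call of Tspan4 and ratios to other genes depend on the length and on that rule. What part the double listing has in the levels of Cd151 and Tspan4 was not tested. By limma Cd151 was above 1 TPM (adjusted p = 0.00231) and Tspan4 below it (adjusted p = 0.000415), and both levels are given only as listed.

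The neighbouring relatives on chromosome 4 are listed once each. Tspan11 (312727) runs from 160455986 to 160522905 on the plus strand and Tspan9 (312728) from 160530726 to 160605107 on the minus strand, 7.82 kb apart with no listed gene between. Cd151 was 78.2-fold below Tspan11 and Tspan4 was 61.1-fold below Tspan9 as listed, with log2 ratios of -6.29 ± 0.36 and -5.93 ± 0.29. A further neighbouring pair was Tspan18 and Cd82 on chromosome 3, 87.7 kb apart on the same strand, where Tspan18 was at 46.3 ± 2.40 TPM and Cd82 at 274.7 ± 2.08.

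The ADAM10-binding subgroup guides that sheddase out of the endoplasmic reticulum and to its substrates, Notch receptors among them. Of its 5 listed members, 4 were above 1 TPM and 1, Tspan33, was below. These shares are near those of all genes tested, of which 78.4% were above and 17.8% below. They summed to 535, 527 and 532 TPM. Tspan14 was the highest, at 299.9, 288 and 294 TPM, and made up 55.3% ± 0.727 of the subgroup. Tspan17 followed at 115, 119 and 116 TPM (21.9% ± 0.636), then Tspan15 at 78.4 ± 0.433 TPM (14.7% ± 0.159) and Tspan5 at 42.5 ± 1.17 TPM (7.997% ± 0.2). No library of one of these 4 overlapped the next in order. Tspan14 exceeded Tspan17 by a log2 ratio of 1.33 ± 0.06 and Tspan15 by 1.91 ± 0.03, and the log2 ratio of Tspan5 to Tspan14 was -2.79 ± 0.04.

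Tspan33, known from red cell formation, had 4, 1 and 0 counts in replicates 1, 2 and 3. Pooled over the libraries it was at 0.119 TPM, and the exact Poisson limits at 95%, which cover counting error only, were 0.0387 and 0.278 TPM. Tspan14 was 2466-fold higher by pooled counts, with an exact interval of 1056 to 7598. Adam10 itself was at 140, 132 and 134 TPM, with a mean of 135 ± 3.84, and the related sheddase gene Adam17 at 249 ± 5.53 TPM was 1.84-fold higher. The Notch receptor genes Notch1 and Notch2 were at 125 ± 2.93 and 52.5 ± 1.89 TPM.

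Both members known from neural tissue were above 1 TPM but at very different levels. Tspan7, an X-linked gene active in neurons and tied to intellectual disability, was at 423, 427 and 428 TPM, the fifth highest of the family. Tspan2, known from oligodendrocytes, was at 10.7, 10.6 and 10.6 TPM, and Cd9 was 49.5-fold higher. Of the 4 oligodendrocyte markers only Myrf was above 1 TPM (12.2 ± 0.402 TPM), and Mog, Olig2 and Sox17 were at most 0.461 TPM in any library. The neuronal markers Tubb3 and Stmn2 were at 185 ± 5.76 and 124 ± 4.68 TPM, each below Tspan7 in every library. Tspan6, the X-linked relative of Tspan7, was at 163, 162 and 161 TPM, 2.63-fold below Tspan7 (log2 ratio -1.40 ± 0.02).

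Tspan31 and Tspan13 are divergent members of the family. Tspan31, also called SAS after its amplification in sarcoma, was at 159, 153 and 157 TPM and Tspan13 at 21.1 ± 0.731 TPM, a log2 ratio of Tspan13 to Tspan31 of -2.88 ± 0.03. Tspan31 lies next to the cell cycle kinase gene Cdk4 (533 ± 8.996 TPM) on the opposite strand, and their listed exons share 9 bases. The strand setting of the counting is not given in the sources used here. Tspan6, Tspan31 and Tspan11 stood close in the order, at 162 ± 1.08, 156 ± 3.06 and 149 ± 2.01 TPM. Their libraries did not overlap, but the gap between the lowest library of Tspan6 (161 TPM) and the highest of Tspan31 (159 TPM) was smaller than the SD of Tspan31.

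Among members with a known receptor or channel partner, Tspan12, which assists the Norrin receptor Fzd4 in retinal vessels, was at 22.9, 21.9 and 22.1 TPM. The lowest library of Tspan12 (21.935 TPM) and the highest of Tspan13 (21.934 TPM) were equal to the second decimal, and within libraries Tspan12 was the higher in 3 of 3. Fzd4 was lower than Tspan12, at 5.998 ± 0.574 TPM, and the co-receptor gene Lrp5 was at 49.1 ± 1.24 TPM. The ligand gene Ndp had 0, 0 and 4 counts, and it too is listed at 2 places. Tspan18, which supports the calcium channel Orai1 in endothelium, was at 49.0, 44.6 and 45.1 TPM, and Orai1 at 35.4, 42.1 and 40.3 TPM. Their log2 ratio was 0.24 ± 0.20, with Tspan18 higher in 3 of 3 libraries, and the ratio moved between 0.09 and 0.47 over the libraries. Endothelial markers ranged from Pecam1 at 0.0693 ± 0.0695 TPM to Cdh5 at 16.6 ± 1.03 TPM, so Tspan18 was above all 5 of that list. 

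The leukocyte, photoreceptor, urothelial and epithelial members all lay under 10 TPM, and at these levels the libraries differed more. The leukocyte member Cd53 was at 2.30, 1.70 and 1.275 TPM from 29, 20 and 15 counts, above 1 TPM by limma (adjusted p = 0.00572). Without replicate 1 its log2 difference from 1 TPM was 0.31 and the call was lost, as it was when genes without a count were tested too (0.45). Its relative Cd37 was at 0.701, 0.879 and 0.251 TPM from 6, 7 and 2 counts, below 1 TPM by limma (adjusted p = 0.0266). The call of Cd37 was lost without replicate 1 (log2 difference -0.38), without replicate 3 (-0.16), when genes without a count were tested too (-0.33), and with edgeR in place of limma (-0.71 with no pseudocount). The ratio of Cd53 to Cd37 by pooled counts was 2.89, with an exact interval of 1.63 to 5.46. The pan-leukocyte marker Ptprc was at 0.316 ± 0.0756 TPM, and Cd68, a macrophage marker, at 6.20, 5.695 and 3.39 TPM. The other leukocyte markers Lyz2, Tyrobp, Csf1r and Aif1 were at 9.85 ± 0.463, 8.35 ± 1.32, 2.31 ± 0.204 and 1.21 ± 0.670 TPM. Of the 6 leukocyte markers, 3 (Ptprc, Cd68 and Aif1) were highest in replicate 1 and lowest in replicate 3 as Cd53 was, and Tyrobp, Lyz2 and Csf1r were not. Few counts stood behind these orders, with 15, 10 and 9 for Ptprc, 55, 47 and 28 for Cd68 and 8, 7 and 2 for Aif1. Of all 4973 genes under 10 TPM with a count, 1689 were highest in replicate 1. How many genes shared the full order was not computed, so no reading is drawn from it. The part of leukocytes in the level of Cd53 was not tested.

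The photoreceptor pair was split. Rom1, which shapes the rims of photoreceptor discs together with peripherin 2, was at 6.99, 7.33 and 8.82 TPM from 80, 78 and 94 counts. Prph2 had 0 counts in every library, which allows up to 0.304, 0.327 and 0.327 TPM at the level of 3 counts. The listed gene model of Prph2 is broken into 19 blocks, 15 of them under 50 bases and the shortest of 3 bases, and what part this has in the lack of counts was not tested. Other photoreceptor genes were near 0, with no count for Nrl and Crx and 0.176 ± 0.0801 TPM for Gnat1.

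Of the urothelial pair, Upk1b was at 5.12, 6.565 and 6.07 TPM and Upk1a at 0.112, 0.121 and 0.241 TPM from 1, 1 and 2 counts. By pooled counts Upk1b was 37.5-fold higher, with an exact interval of 14.5 to 139. Their usual partners were at or near 0, with no count for Upk2 and 0, 0 and 1 count for Upk3a, and the urothelial keratin Krt20 had no count. The epithelial members were low too. Tspan8, found in gut epithelium and carcinomas, was at 3.02, 1.995 and 1.62 TPM from 26, 16 and 13 counts (above 1 TPM by limma, adjusted p = 0.00136), and Tspan1 had 0, 0 and 1 count. Tspan8 and Cd151, next to each other in the order of levels, overlapped in their libraries, as did Cd151 and Cd53, Cd37 and Tspan4, Upk1a and Tspan33, and Tspan33 and Tspan1. In each of these pairs the gene with the higher mean was higher in 2 of 3 libraries, so their order is not resolved.

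**Figure D3:**
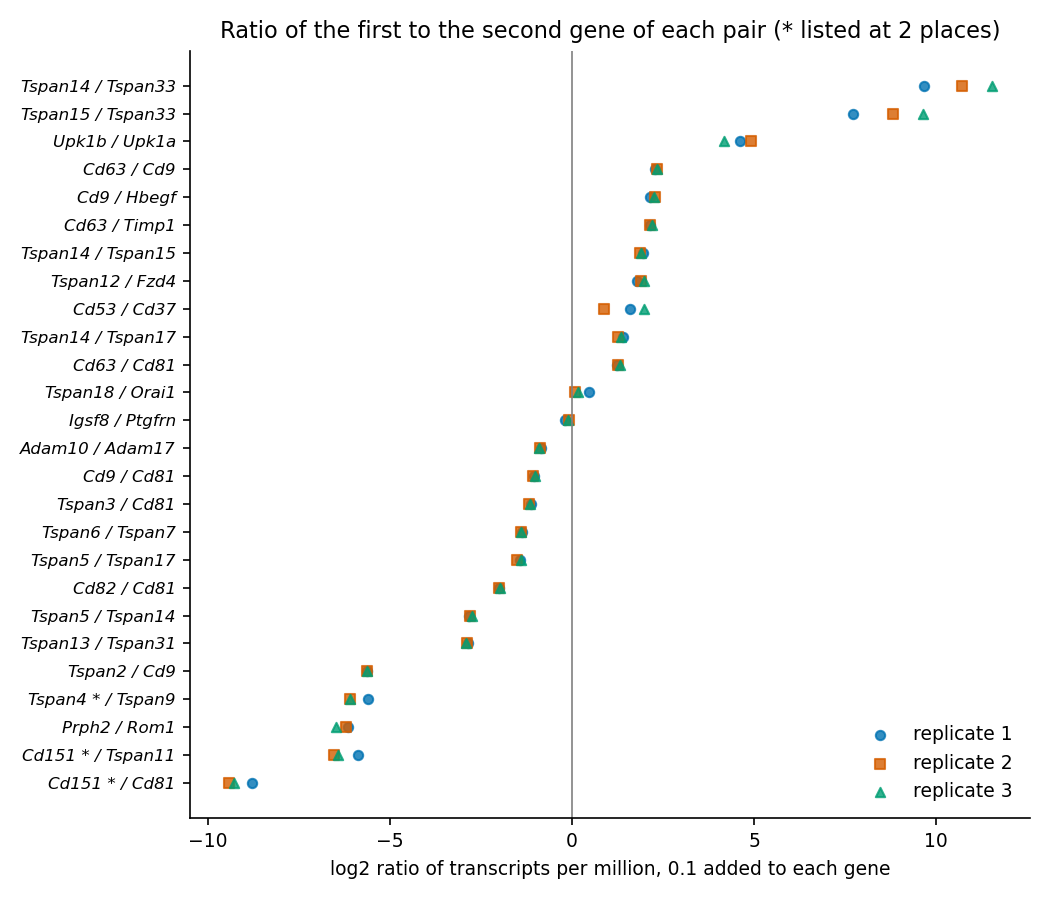
Log2 ratio of TPM, with 0.1 added to each gene, of the first to the second gene of each of the 26 measured pairs, with 1 symbol per library and a line at equal levels. In 12 pairs the first gene was higher in 3 of 3 libraries and in 14 the second.

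Genes of proteins that tetraspanins bind were described from a list picked by role. By limma 29 of the 32 partner genes described here lay above 1 TPM and 2 below, and Upk2 had no count and was not tested. Of all genes tested, each with a count, 78.4% were above. The median over the 32 partner genes was 105 TPM, beside 21.7 TPM over all genes with a count. The list was picked with earlier results of these data known, so these comparisons describe the list and not partners in general. The integrin subunit gene Itgb1 was the highest at 964 ± 25.2 TPM, with the laminin-binding subunit genes Itga7 at 327 ± 0.469, Itgb4 at 236 ± 3.34 and Itga6 at 136 ± 3.68 TPM. Other abundant partners were the membrane protease gene Mmp14 at 807 ± 13.3 TPM, the laminin chain gene Lamc1 at 636 ± 8.56 TPM and Timp1, a protease inhibitor that binds CD63, at 591 ± 9.83 TPM. Cd63 exceeded Timp1 by a log2 ratio of 2.16 ± 0.03.

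Genes for vesicle formation were led by Sdcbp, encoding the syntenin adaptor that joins tetraspanins and syndecans to the ESCRT machinery, at 592 ± 18.3 TPM. The ESCRT genes Tsg101 and Hgs were at 159.6 ± 6.33 and 124 ± 3.18 TPM, and Pdcd6ip, encoding ALIX, at 92.4 ± 0.673 TPM. The immunoglobulin-type partners of CD9 and CD81 were close to one another. Igsf8 was at 99.0, 107 and 108 TPM and Ptgfrn at 113, 114 and 116 TPM, a log2 ratio of -0.13 ± 0.06 with Ptgfrn higher in 3 of 3 libraries. Hbegf, the growth factor precursor that CD9 binds, was at 114 ± 4.82 TPM, and Cd9 exceeded it by 2.22 ± 0.06 on the log2 scale. Cr2, a complement receptor gene, was lower at 1.795 ± 0.0874 TPM.

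**Figure D4:**
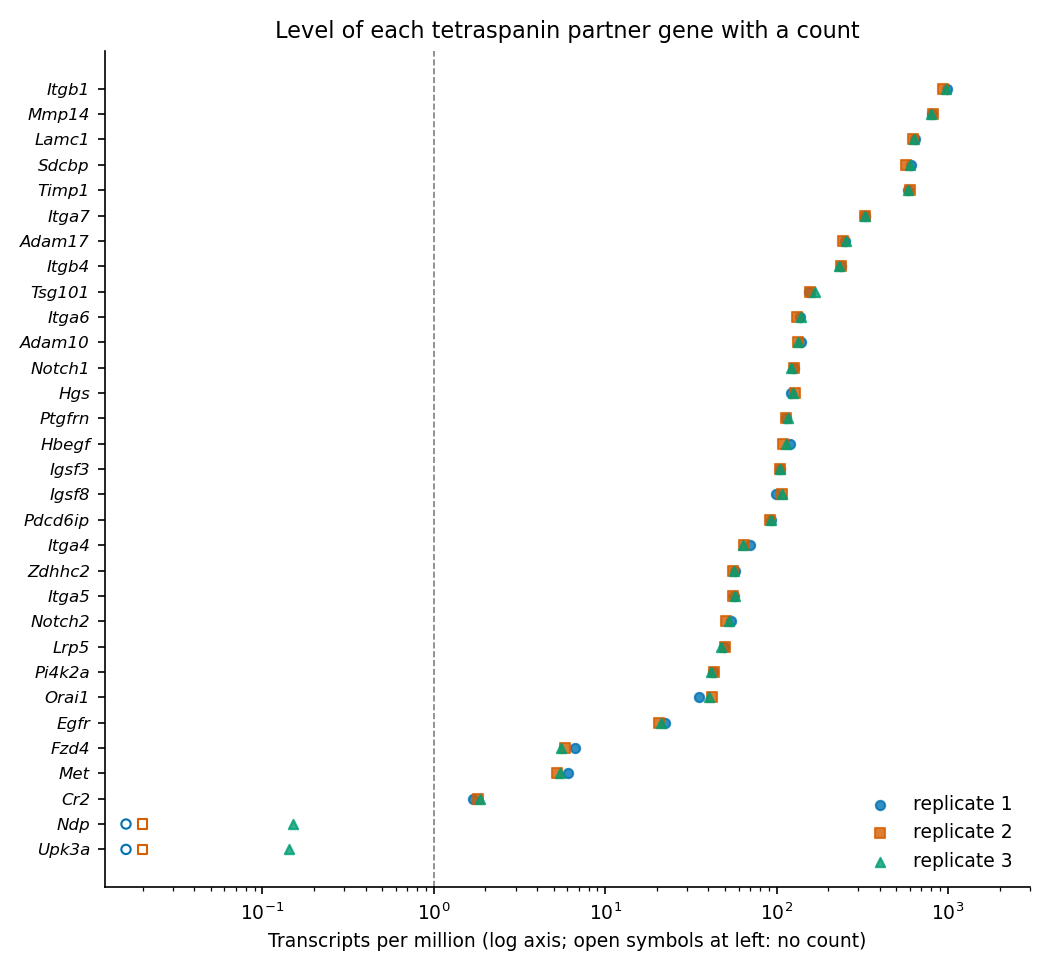
Level of the 31 partner genes that had a count, in TPM on a log axis, with 1 symbol per library, open symbols at the left edge for libraries without a count, and a dashed line at 1 TPM. Itgb1 at 964 TPM heads the list, and Ndp and Upk3a lie to the left of the line.

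The abundant members varied little between libraries. Of the 18 with a mean of 10 TPM or more, 0 had a highest library over 1.2 times the lowest, where 7.54% of all genes at that level did. With only 18 members, 0 is near that share. The coefficient of variation of the 18 ran from 0.399% for Tspan2 to 5.19% for Tspan18, with a median of 1.75%. For all 8372 genes at that level the median was 3.84%, but this set is not matched in level. At 100 TPM or more were 11 of the 18 members and 2093 of the 8372 genes. At 100 TPM or more the medians were 1.44% over 11 members and 2.58% over 2093 genes. With a limit of 1 TPM in place of 10, 5 of 23 members (21.7%) were past 1.2 times, namely Rom1, Upk1b, Tspan8, Cd151 and Cd53, near the 19.5% of all genes at that level.

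The printed promoters show the range of CpG content that accompanied these levels. The ratio of observed to expected CpG was 0.706 in the Cd63 window and 0.594 in that of Cd81, and reached 1.001 for Tspan5. Upk1a had 2 CpG sites in 300 bases and a ratio of 0.0735, and Cd37, Cd53 and Upk1b were also low, at 0.131, 0.246 and 0.262. The median was 0.749 over the 17 matched members at 10 TPM or more and 0.368 over the 10 below. The same medians over all listed genes with a promoter entry were 0.803 (6864 genes) and 0.327 (6527 genes). Across the 27 members, Spearman's rank correlation between CpG ratio and level was 0.56, and across all 13391 such genes it was 0.61, given as a description since genes are not independent replicates. Tspan33 had 29 CpG sites and a ratio of 0.829 at 0.115 TPM.

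**Figure D5:**
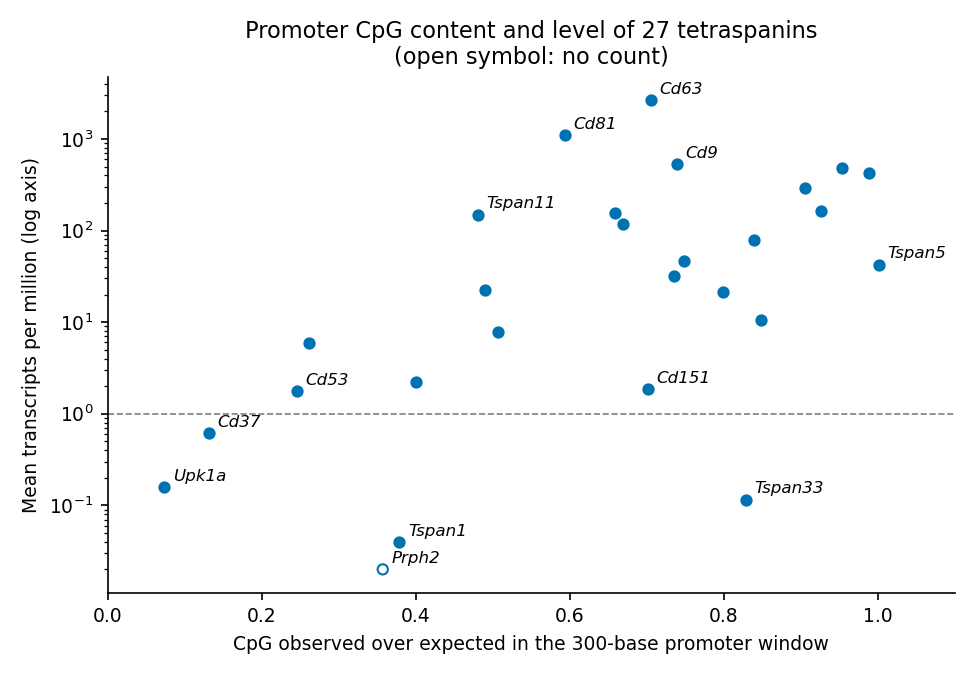
Mean TPM over 3 libraries (log axis) against the ratio of observed to expected CpG in the 300-base promoter window, with 1 point per matched tetraspanin, an open symbol for no count and a dashed line at 1 TPM. All points to the left of Tspan11 (ratio 0.48) lie under 10 TPM, and Tspan33 and Cd151 lie low at ratios of 0.829 and 0.701.

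Short motifs were searched on both strands of these windows, each counted on its own, and the GC box and the E-box each hold a CpG themselves. The GC box GGGCGG was found in 11 of the 17 members at 10 TPM or more (64.7%), near the 66.1% of all genes at that level, and in 33.1% of all 33469 promoters. CCAAT was found in 5 of the 17 (29.4%, against 38.1%) and ACAAAG, the core of a SOX motif, in 3 (17.6%, against 12.8%). TATAAA was found in Cd81 alone (5.88%, against 5.96%) and the E-box CACGTG in Cd63 alone (5.88%, against 10.2%), in both cases among the 27 windows searched. The E-box of Cd63 can be seen in its printed window as caCGtg. These matches describe the letters of the window and do not show that a factor binds there.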

How the data were processed

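RNA of 3 libraries of 1 group was sequenced after a stranded poly(A) library kit, per the labels' protocols. The submitters' processing notes name STAR 2.5.2b, Subread and the build rn6. The authors deposited raw counts per gene, from 14139074 to 15309526 a library. TPM was computed by the authors from those counts and the listed gene lengths, per the file headers, and values recomputed from the counts differed by at most 0.0005 TPM. The annotation, the strand setting and the rule for reads that match several places were not given in the sources used here. The 2 rows without a gene name and 6 columns of totals were left out. Counts over length, another deposited column kind, were not used.

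The test against 1 TPM was run in R 4.3.3 on all genes with a count, using limma 3.58.1 on log2(TPM + 1) with a trended prior. It was two-sided, and the threshold was 0.05 after Benjamini-Hochberg adjustment. The pseudocount makes differences of low genes look smaller. An edgeR 4.0.16 quasi-likelihood F statistic on the counts, with gene length and library total as offset, was an alternative. Both were tested on simulated data. Poisson and ratio intervals are exact at 95% and cover counting error only. Chi-square per degree of freedom between library pairs was 1.67 to 2.36, where sampling noise gives about 1, and all 3 were kept as separate libraries. This spread does not show that they came from separate cultures, so n = 3 counts libraries, in the tests too. Every member is reported, with values by library at a mean of 100 TPM or more and elsewhere where a result turns on them. Partner genes, pairs and markers were lists fixed by role, and of 27 pairs 26 were measured. The members and lists were chosen with earlier results of these data known. Alternatives were other pseudocounts, filters, thresholds, scalings and leaving out each replicate. Tspan10, Tspan32 and 5 partner genes are not analysed here, and 1 further gene of the partner list and 1 of the markers are not reported here.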

Additional observations from a re-analysis of the deposited data

How the results depend on the processing

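The count of members above 1 TPM by limma was 20 when tested against 2 TPM and 22 to 23 in every other setting tried. The count below was 3 when tested against 0.5 TPM, 4 with edgeR or where the mean had to reach 0.1 TPM, and 3 to 5 when 1 replicate was left out, with 3 reached without replicate 3, where the call of Cd37 was lost and Tspan1 had no count left to test. The low members decide these counts. Against 2 TPM the log2 differences of Cd151, Cd53 and the partner gene Cr2 were -0.090, -0.14 and -0.10, and against 0.5 TPM that of Cd37 was 0.082, each turned in sign by the level chosen. The call of Tspan8 was lost against 2 TPM (0.075) and that of Tspan4 against 0.5 TPM (-0.070). Over all genes, 6235 were below when unfiltered and 1372 where the mean had to reach 0.1 TPM, since more or fewer near-silent genes were tested. The summed level of the members was 3961 TPM without Cd63 and 4285 when counts were scaled to the library total without dividing by length. Their median was 58.8 by such counts, 37.2 TPM without Prph2, and 42.5 TPM without Cd151 and Tspan4, a setting chosen after seeing the data. With a limit of 1 TPM the number of members past 1.2 times between libraries was 5 in place of 0. The 12 pairs with the first gene higher numbered 12 in each of the 5 alternatives. No paired analysis was possible because the libraries form 1 group. Depth limits the members under 10 TPM, where 0 to 94 counts stood behind each value.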
